A study of Mus musculus with 20 samples.

Results

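Peptidylarginine deiminases (PADs) are calcium-dependent enzymes that turn arginine residues of proteins into citrulline, which removes their positive charge. PAD activity has long been known in the rodent uterus, where it varies with the ovarian cycle. GREB1 is a nuclear cofactor of the estrogen receptor, and its gene is a classical early target of that receptor.

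The RNA levels of 5 genes, Padi1, Padi2, Padi3, Padi4 and Greb1, were examined in mouse uterus. The genes were matched by symbol among the 45777 genes listed. They were chosen by their measured levels in the same libraries, so their levels and fold changes are a description and carry no test.

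Uteri of wild-type (WT) B6D2F1 females aged 8 to 12 weeks were collected at 18:00 on day 3.5 of pregnancy, with the morning of the vaginal plug taken as day 0.5. The 4 groups held 5 mice each, with 1 library per mouse. Control mice received neither drug nor cells. Mice of the implantation failure (IF) model received RU486 (mifepristone), which blocks the progesterone and glucocorticoid receptors, under the skin on the morning of day 3.5. The PBMC and PBMC-hCG groups received the same RU486 and, on day 1.5, peripheral blood mononuclear cells placed in the uterus. These cells came from non-pregnant mice and had been cultured without human chorionic gonadotropin (hCG) for the PBMC group and with it for the PBMC-hCG group. RU486 acts on every tissue of the mouse, and RNA came from 1 whole uterine horn per mouse. Mice given RU486 and hCG-containing culture medium without cells were part of the study but are not among these libraries. In the comparisons with IF, the cells and the injection of medium into the uterus therefore cannot be told apart.

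Levels are given in TPM (transcript abundance scaled for gene length and to a fixed total per library). How many reads lie behind a value is therefore unknown, and p-values measure the spread between mice. Fold changes are differences of log2(TPM + 0.1), which understate changes of genes near 0, with the standard error (SE) of a limma fit over all 4 groups. A gene was called where the p-value adjusted over the 18706 genes above 0 TPM in all 20 libraries was under 0.05. Padi1, Padi2, Padi4 and Greb1 were among these 18706 genes. Padi3 was listed at 0 in 1 library and was not, so its fold changes come from the same fit over the 30695 genes above 0 in any library.

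The tissue label was checked first. Markers of stroma, smooth muscle and uterine epithelium were abundant, led by Dcn at a mean of 2935 TPM, Tagln at 2317 TPM and Prss29 at 2299 TPM over the 20 libraries. None of the 13 epithelial, 8 stromal and 6 smooth muscle markers was at 0 in all libraries.

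Control replicate 2 stood apart from the other control libraries. Its 13 epithelial markers summed to 15300 TPM against 1405 to 4154 TPM in the other 4 control mice, of which Prss29, a protease of the uterine glands, made up 13970 TPM. Without Prss29, a split made after these values were seen, the sum was 1330 TPM there and 746 to 1091 TPM in the other control mice. Its 8 stromal markers summed to 5430 TPM against 8472 to 9005 TPM. Its log2 values correlated with those of the other control mice at a mean r of 0.963, the lowest of the 20 libraries. Fold changes between IF and control and correlations of the members that rest on this library are given with and without it.

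Padi1 was the most abundant member, ahead of Padi2, Greb1, Padi4 and Padi3. Their means over the 20 libraries were 92.6, 12.6, 11.6, 6.10 and 0.404 TPM, at the 91.8, 50, 48.2, 36.7 and 7.91 percentiles of the mean levels of tested genes. Padi2 and Greb1 were neighbours in this order whose ranges overlapped in every group.

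PAD1 is best known from the cornifying epidermis, where it citrullinates keratins and filaggrin. In the control mice Padi1 stood at 23.4, 38.3, 20.04, 29.4 and 29.2 TPM in replicates 1 to 5. In the IF mice it stood at 92.4, 188.1, 147.3, 252.6 and 200.4 TPM. All 5 IF mice were above all 5 control mice, and the lowest IF value, in replicate 1, was more than double the highest control value.

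In the PBMC mice Padi1 stood at 103.8, 76.6, 88.9, 49.1 and 169.5 TPM, and in the PBMC-hCG mice at 122.2, 55.8, 30.0, 82.4 and 53.4 TPM. All 5 PBMC mice were above all control mice, and 3 of them were below all IF mice. Of the PBMC-hCG mice, 4 were above all control mice and 4 were below all IF mice, replicate 1 being the exception at the upper end and replicate 3 lying within the control range.

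The group means of Padi1 were 28.1 ± 6.97 TPM in control, 176.2 ± 60.03 TPM in IF, 97.6 ± 44.9 TPM in PBMC and 68.8 ± 35.2 TPM in PBMC-hCG (SD, n = 5). The IF mean was 6.28 times the control mean. On the log2 scale the difference between IF and control was 2.60 (SE 0.35, 95% interval 1.87 to 3.33), and without control replicate 2 it was 2.72. PBMC differed from IF by -0.89 (SE 0.35) and PBMC-hCG differed from IF by -1.43 (SE 0.35). The PBMC and PBMC-hCG groups overlapped, with a log2 difference of -0.54 whose interval reached from -1.27 to 0.19. Against control, Padi1 was still higher by 1.71 in PBMC and by 1.17 in PBMC-hCG. In whole tissue, fewer cells of a type and less RNA per cell cannot be told apart, which holds for each level given here.

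**Figure D1:**
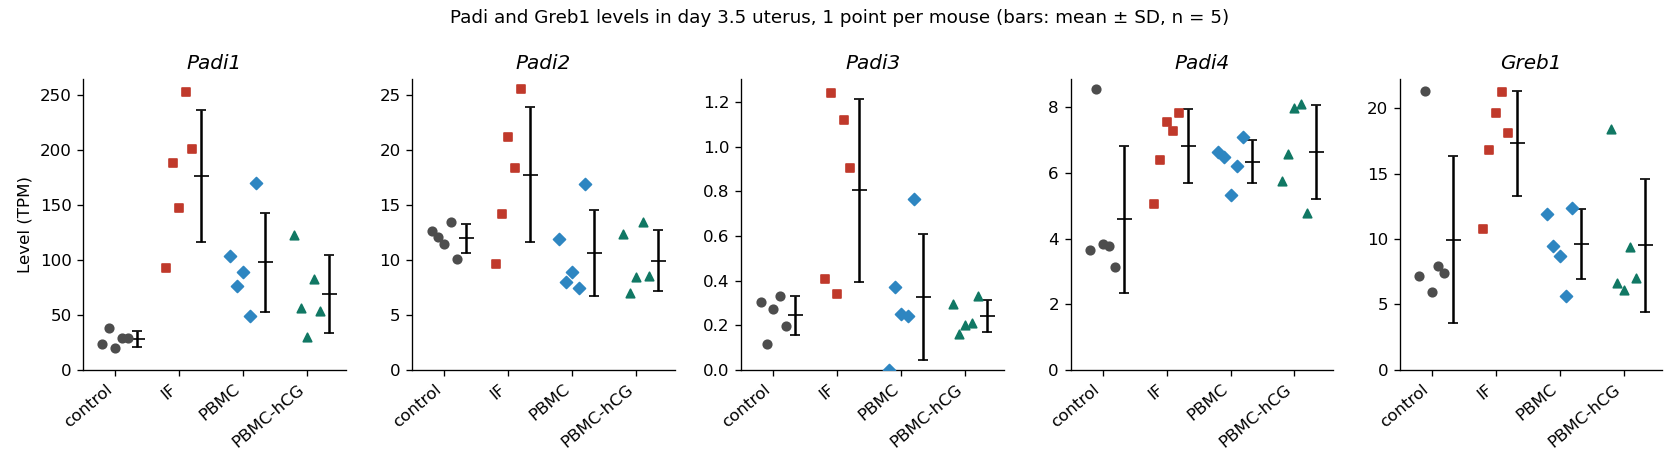
Level of Padi1, Padi2, Padi3, Padi4 and Greb1 in TPM (vertical axes from 0, a scale for each gene) by group. Each point is 1 mouse, in replicate order within its group, and bars show mean ± SD (n = 5). For Padi1 the IF mice lie between 92.4 and 252.6 TPM, above all control mice, while 1 control mouse stands apart for Padi4 (8.55 TPM) and Greb1 (21.3 TPM).

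PAD2 is the most widely expressed PAD, found in muscle, brain and secretory tissues. Padi2 stood at 12.7, 12.1, 11.5, 13.5 and 10.1 TPM in the control mice and at 9.69, 14.2, 21.2, 18.4 and 25.5 TPM in the IF mice. In the IF group replicates 2 to 5 were above all control mice, whereas replicate 1 was below all of them, so the groups overlapped.

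Padi2 stood at 11.9, 7.96, 8.89, 7.47 and 16.9 TPM in the PBMC mice and at 12.3, 7.04, 8.42, 13.5 and 8.51 TPM in the PBMC-hCG mice. In each of these groups 3 mice were below all IF mice and 3 were below all control mice. The means were 12.0 ± 1.29 TPM in control, 17.8 ± 6.14 TPM in IF, 10.6 ± 3.903 TPM in PBMC and 9.95 ± 2.78 TPM in PBMC-hCG (SD, n = 5). Among the control mice the values of Padi2 varied least of all members, with an SD of 10.8% of the mean. The log2 difference was 0.50 (SE 0.25) for IF against control, -0.73 for PBMC against IF and -0.80 for PBMC-hCG against IF, whereas PBMC-hCG and PBMC differed by -0.07, with an interval from -0.59 to 0.45.

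PAD3 is known from the hair follicle, where it citrullinates trichohyalin. Padi3 was near the lower limit of the data, at 0.303, 0.114, 0.272, 0.332 and 0.198 TPM in the control mice and 0.409, 1.24, 0.342, 1.12 and 0.907 TPM in the IF mice. The 2 groups did not overlap, although IF replicates 1 and 3 were close to the highest control mouse. The PBMC mice had 0, 0.373, 0.252, 0.243 and 0.766 TPM, and the PBMC-hCG mice had 0.162 to 0.332 TPM, all below the lowest IF mouse. The log2 difference was 1.30 (SE 0.45) for IF against control, -1.25 (SE 0.45) for PBMC against IF and -1.29 (SE 0.45) for PBMC-hCG against IF. At these levels the fold depends on the pseudocount, and with 1 in place of 0.1 these values were 0.51, -0.44 and -0.51. Single libraries moved it as well: PBMC against IF was -0.80 without PBMC replicate 1, the library at 0, and -1.58 without PBMC replicate 5, and IF against control was 1.14 without control replicate 2.

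PAD4 is the PAD that carries a nuclear localization signal, citrullinates histones and is abundant in neutrophils. Padi4 stood at 3.65, 8.55, 3.83, 3.76 and 3.13 TPM in the control mice and at 5.05, 6.39, 7.55, 7.28 and 7.84 TPM in the IF mice. Control replicate 2 was above all IF mice, and the other 4 control mice were below all of them. The PBMC mice lay between 5.32 and 7.08 TPM and the PBMC-hCG mice between 4.79 and 8.10 TPM. The means were 4.59 ± 2.23 TPM in control, 6.82 ± 1.13 TPM in IF, 6.35 ± 0.655 TPM in PBMC and 6.63 ± 1.42 TPM in PBMC-hCG (SD, n = 5).

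For Padi4 the log2 difference between IF and control was 0.65 (SE 0.22), and 0.89 without control replicate 2. The 3 groups given RU486 overlapped one another. PBMC differed from IF by -0.09 (95% interval -0.54 to 0.36) and PBMC-hCG from IF by -0.05 (-0.50 to 0.40).

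Since Padi4 is abundant in neutrophils, markers of these cells were set beside it. The 11 neutrophil markers summed to 130.1 ± 39.5 TPM in control, 161.8 ± 42.1 TPM in IF, 192.7 ± 51.0 TPM in PBMC and 181.3 ± 117 TPM in PBMC-hCG (SD, n = 5), and Retnlg alone averaged 150.3 TPM. Retnlg had 121, 146.3, 168.1 and 166 TPM in the same order, so it made up most of each sum. S100a8 had 2.342, 3.875, 6.73 and 3.033 TPM, and S100a9 had 1.855, 5.749, 11.44 and 5.525 TPM. Csf3r had 3.827, 4.23, 4.531 and 4.673 TPM. Ly6g had 0.178, 0.399, 0.57 and 1.01 TPM and Cxcr2 had 0.0741, 0.357, 0.485 and 0.284 TPM. Neither Ly6g nor Cxcr2 was tested, since each was at 0 in some control library. Of the 5 that could be tested, S100a9 was called as higher in IF than control (log2 difference 1.37, adjusted p = 0.0413), and none was called in the other 3 comparisons. Among genes for granule proteins, Elane, Ngp, Camp and Mmp8 had group means of at most 0.0759 TPM, and Mpo had group means of 0.65 to 0.82 TPM. In control replicate 2, where Padi4 was highest, the neutrophil sum was 160.8 TPM, within the control range of 75.9 to 173.2 TPM. Since Retnlg made up most of the group sums, this says little of the other markers in that mouse. The part of neutrophils in the level of Padi4 was not tested.

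The oocyte-specific PAD gene, Padi6, was listed at 0 in all 20 libraries. The oocyte markers Zp2, Zp3 and Nlrp5 were also at 0 throughout, and the 9 oocyte and early embryo markers together reached 1.41 to 4.13 TPM per library, with Gdf9 the most abundant at a mean of 1.57 TPM. Of the 3 oocyte markers tested, Gdf9 was called as higher in PBMC-hCG than IF (log2 difference 0.83, adjusted p = 0.0258), the only call of that list. Markers of cornified squamous epithelium, in which Padi1 and Padi3 are best known, were low as well. The 9 of them summed to 6.20 to 12.7 TPM per library, Krt10 led with 5.38 TPM, and Flg, which encodes filaggrin, was at 0. Of the 4 tested, Trp63 was called as higher in IF than control (log2 difference 1.39, adjusted p = 0.00186) and as higher in PBMC-hCG than IF (1.03, adjusted p = 0.0338).

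The 4 expressed Padi genes together reached 44.9 ± 8.96 TPM in control, 201.6 ± 64.6 TPM in IF, 114.9 ± 49.3 TPM in PBMC and 85.6 ± 37.0 TPM in PBMC-hCG (SD, n = 5). Padi1 made up 62.1% ± 4.91 of this sum in control mice, 87.0% ± 2.93 in IF, 84.0% ± 3.62 in PBMC and 78.1% ± 8.26 in PBMC-hCG. Padi2 made up 27.4% in control and 9.04% in IF. The ratio of Padi1 to Padi2 ranged from 1.75 to 3.15 in control mice and from 6.96 to 13.7 in IF mice, so it did not overlap between these groups. It was 6.57 to 10.04 in PBMC and 3.57 to 9.91 in PBMC-hCG mice, all above the control range.

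Greb1 stood at 7.14, 21.3, 5.95, 7.93 and 7.41 TPM in the control mice and at 10.8, 16.8, 19.6, 21.3 and 18.1 TPM in the IF mice. Control replicate 2 was at the level of the highest IF mouse, whereas the other 4 control mice were below all IF mice. The PBMC mice had 11.9, 9.44, 8.73, 5.68 and 12.4 TPM, and the PBMC-hCG mice had 18.4, 6.67, 6.07, 9.36 and 7.06 TPM. In the PBMC-hCG group replicate 1 stood apart, and the other 4 were below all IF mice.

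The means of Greb1 were 9.94 ± 6.39 TPM in control, 17.3 ± 4.02 TPM in IF, 9.62 ± 2.70 TPM in PBMC and 9.51 ± 5.12 TPM in PBMC-hCG (SD, n = 5). The log2 difference was 0.93 (SE 0.33) for IF against control, and 1.24 without control replicate 2. It was -0.85 (SE 0.33) for PBMC against IF and -0.95 (SE 0.33) for PBMC-hCG against IF, the latter -1.22 without PBMC-hCG replicate 1. PBMC-hCG and PBMC differed by -0.10, with an interval from -0.79 to 0.60. Greb1l, the paralog of Greb1, had 1.75 ± 0.0942 TPM in control, 1.37 ± 0.390 TPM in IF, 1.34 ± 0.305 TPM in PBMC and 1.599 ± 0.251 TPM in PBMC-hCG, and was called in none of the 4 comparisons.

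Across the whole table, 21.9% of the 18706 genes were called between IF and control, and 13.4% were called as higher in IF. Of the 4 members tested, Padi1 and Padi4 passed this rule, both higher in IF. The groups did not overlap for 12.8% of tested genes and for 2 of the 5 members, Padi1 and Padi3, of which Padi3 lay outside the tested genes. Between PBMC and IF, 0% of genes were called with limma, and no member passed. An unadjusted p under 0.05 was found for 1271 genes, a count that includes genes passing by chance. The groups did not overlap there for 1.01% of genes and for 0 of the 5 members.

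Between PBMC-hCG and IF, 13.6% of genes were called, 5.99% as lower in PBMC-hCG. Padi1 and Padi2 were among the latter. The groups did not overlap for 7.24% of tested genes and for 1 of the 5 members, Padi3, which lay outside the tested genes. Between PBMC-hCG and PBMC, 0.0107% of genes were called, which were 2 genes named here after their values were seen, Gm39043 (log2 difference 1.23, adjusted p = 0.00813) and LOC115490267 (-2.36, adjusted p = 0.00831), while 3024 genes had an unadjusted p under 0.05. No member passed, and the groups did not overlap for 3.46% of genes and 0 of the 5 members. Nothing is read from these counts, since the members were selected from the same levels. The comparisons also share libraries: the IF mice enter 3 of them, so a high or low IF group moves the members in all 3.

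The count of calls between PBMC-hCG and IF rested on single mice. The 2544 genes called with all mice became 0 when replicate 5 of IF or replicate 3 of PBMC-hCG was dropped, and 5061 when replicate 3 of IF was. Calls in that comparison that are named here for single genes are therefore close to the threshold.

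Differences between mice of the same group were examined after each group mean had been removed from the log2 values of the 20 mice. The members come from the same libraries, so the values of r are a description with no test. For Padi1 and Greb1 Pearson r was 0.82 and the Spearman coefficient was 0.865. Of the 18705 other tested genes, 24 (0.128%) had an r with Padi1 at least as high as that of Greb1, which is included in the count, and the median r with Padi1 was -0.0861. Without PBMC-hCG replicates 1 and 3, the mice farthest from the median of Padi1, r was 0.787, and without control replicate 2 it was 0.892.

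For Padi1 and Padi2 r was 0.71 and the Spearman coefficient was 0.684, and 163 genes (0.871%), Padi2 included, had an r with Padi1 at least as high. It was 0.74 without PBMC-hCG replicates 1 and 3, 0.641 without IF replicate 1 and 0.725 without control replicate 2. For Padi2 and Greb1 r was 0.58 and the Spearman coefficient was 0.699, and 447 genes (2.39%), Greb1 included, had an r with Padi2 at least as high. It was 0.486 without IF replicate 1 and PBMC replicate 5, the mice farthest from the median of Padi2, 0.511 without IF replicate 1 alone and 0.728 without control replicate 2. IF replicate 1 was the lowest IF mouse for Padi1, Padi2, Padi4 and Greb1.

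The pairs with Padi4 depended more on single mice. For Padi4 and Greb1 r was 0.574, and 0.18 without control replicate 2, in which both genes were high. For Padi2 and Padi4 r was 0.381, 0.582 without control replicate 2 and 0.227 without IF replicate 1 and PBMC replicate 5. For Padi1 and Padi4 r was 0.263, 0.142 without control replicate 2 and 0.519 without PBMC-hCG replicates 1 and 3. Padi3 had r of 0.28 with Padi1, 0.202 with Padi2, -0.168 with Padi4 and -0.0393 with Greb1, and without control replicate 2 these were 0.356, 0.213, 0.0394 and 0.152. For Padi2 and Padi3 r changed sign, to -0.331, without IF replicate 1 and PBMC replicate 5. For Padi1 and Padi3 it was 0.281 without PBMC-hCG replicates 1 and 3. Without PBMC replicates 1 and 5 the r of Padi3 was -0.288 with Padi4 and -0.0125 with Greb1. The labels give no batch or date, so these relations could not be examined within batches.

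**Figure D2:**
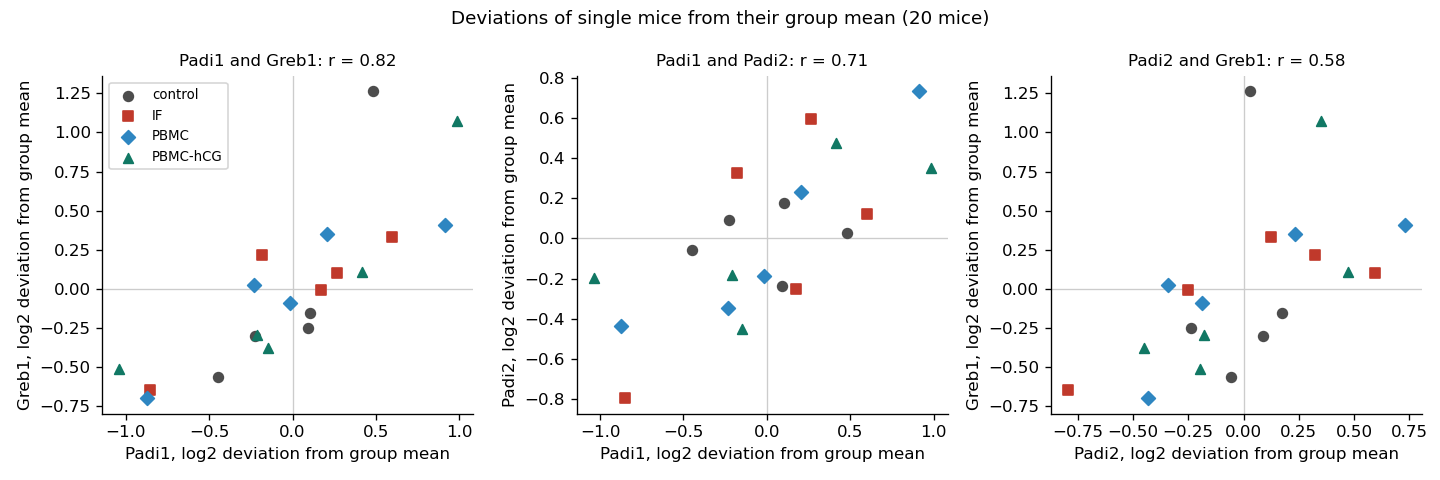
Deviation of each mouse from its group mean in log2(TPM + 0.1) for Padi1 against Greb1, Padi1 against Padi2 and Padi2 against Greb1. Each point is 1 of 20 mice, with color and shape giving its group, and grey lines mark the group means at 0. Mice with high Padi1 for their group also had high Greb1 (r = 0.82), and control replicate 2 is the black point at the top of the panels with Greb1.

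Genes whose levels ran most like those of each member over all 20 libraries were found among tested genes with a mean of at least 1 TPM. These values of r include the differences between groups and are a description. For Padi1 they were Ampd3, an AMP deaminase (r = 0.971), Eva1a (0.97), Oxtr, the oxytocin receptor (0.96), Zxdc (0.952) and Ctsb, the lysosomal protease cathepsin B (0.952). Oxtr had a mean of 9.83 ± 5.64 TPM in control, 149.0 ± 75.4 TPM in IF, 73.9 ± 58.4 TPM in PBMC and 38.4 ± 28.7 TPM in PBMC-hCG (SD, n = 5), the same order of groups as Padi1.

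For Padi2 the most similar genes were Tgm2, a transglutaminase that also modifies proteins in a calcium-dependent way (r = 0.912), Chn1 (0.907), Tex2 (0.89), Chst8 (0.887) and Car12, a carbonic anhydrase (0.854). Tgm2 was at 448.7 ± 21.0 TPM in control, 570.1 ± 121 TPM in IF, 448.0 ± 40.3 TPM in PBMC and 427.8 ± 45.7 TPM in PBMC-hCG. For Padi3 they were Cstb (0.826), Atp8b1 (0.806), Aldh1a2, which makes retinoic acid (0.793), Klhdc2 (0.789) and Atg3 (0.774).

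For Padi4 they were Itgb5, an integrin subunit (0.913), Tgif1 (0.887), Stard5 (0.886), Pitpnm3 (0.879) and Max, the dimerization partner of MYC (0.873). For Greb1 they were Ern1, a sensor of unfolded proteins in the endoplasmic reticulum (0.914), Trim39 (0.876), Fyb2 (0.876), Syt6 (0.875) and the transcription factor gene Mycn (0.866). Without control replicate 2, a choice made after seeing the data, r was 0.86 to 0.91 for the 5 genes of Padi4 and 0.844 to 0.91 for those of Greb1. No gene was among the 5 most similar of 2 members. Over the same 20 libraries r between Padi1 and Greb1 was 0.74, between Padi2 and Greb1 0.717, and between Padi1 and Padi2 0.55. It was 0.586 for Padi1 and Padi4, 0.543 for Padi1 and Padi3, and 0.526 for Padi4 and Greb1. For Padi3 it was 0.505 with Padi2, 0.377 with Greb1 and 0.0885 with Padi4, and for Padi2 and Padi4 it was 0.263.

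The estrogen and progesterone receptors were given with Greb1, since its product acts with the former. Esr1 (estrogen receptor alpha) had 108.5 ± 7.06 TPM in control and 154.5 ± 11.3 TPM in IF mice, a rise of 0.51 on the log2 scale (SE 0.06, adjusted p = 5.98e-06) that all 5 IF mice showed above all control mice. It was at 150.6 ± 9.88 TPM in PBMC and 160.8 ± 5.13 TPM in PBMC-hCG, and was not called in the other 3 comparisons. Pgr (progesterone receptor), itself a target of the estrogen receptor, rose from 45.9 ± 6.49 to 150.0 ± 16.2 TPM in IF mice (log2 difference 1.71, SE 0.14, adjusted p = 1.44e-07). It was at 117.0 ± 19.5 TPM in PBMC and 113.9 ± 25.7 TPM in PBMC-hCG, with 4 of 5 mice of each group below all IF mice, and did not pass in PBMC-hCG against IF (-0.42, adjusted p = 0.0514). Esr2 was above 0 in 13 of 20 libraries, with group means of at most 0.0485 TPM.

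Among 12 steroid receptors and pioneer factors, 10 were tested. Between IF and control 2 rose, Esr1 and Pgr, and Foxa2, a factor of the uterine glands, fell by 0.89 (adjusted p = 0.00366). In PBMC-hCG against IF, Nr2f2 (0.47, adjusted p = 0.0407) and the glucocorticoid receptor gene Nr3c1 (0.39, adjusted p = 0.0258) rose. The median log2 difference of the list was 0.121 and 0.10 in these comparisons, and that of all tested genes was 0.0223 and 0.0494.

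Of 24 genes known as estrogen receptor targets, 22 were tested. Between IF and control 13 rose and 5 fell, with a median of 0.488, and the rises were led by Inhbb (5.24, SE 0.50, adjusted p = 8.85e-07), Ramp3 (3.20, SE 0.41, adjusted p = 2.08e-05) and Gadd45g (3.04, SE 0.36, adjusted p = 8.25e-06). Inhbb encodes an inhibin and activin subunit, Ramp3 a partner of the adrenomedullin receptor, and Gadd45g a stress-induced growth regulator. The falls between IF and control were led by Igf1 (-1.89, adjusted p = 2.33e-07) and Myc (-1.04, adjusted p = 5.14e-07). Ccnd1 (-0.97, adjusted p = 0.0221), Ctsd (-0.79, adjusted p = 0.00872) and Sgk3 (-0.30, adjusted p = 0.00837) fell as well. Ltf, C3, Muc1 and Nrip1 were not called in that comparison. In PBMC-hCG against IF 2 rose and 7 fell, with a median of -0.186. Inhbb fell by 2.03 (adjusted p = 0.0287), Gadd45g by 1.79 (adjusted p = 0.0258) and Cebpb by 1.55 (adjusted p = 0.0258). Inhbb, Ramp3, Gadd45g, Wnt4 and Vegfa had been singled out by the study on these samples, so the direction of this list is not independent evidence.

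Of 16 progesterone receptor targets, 15 were tested. Between IF and control 1 rose and 6 fell, with a median of -0.32. The falls were led by Il13ra2 (-4.20, SE 0.25, adjusted p = 2.84e-09), Zbtb16 (-3.95, SE 0.23, adjusted p = 2.84e-09) and Fkbp5 (-1.81, SE 0.15, adjusted p = 1.33e-07), of which Zbtb16 and Fkbp5 are also known targets of the glucocorticoid receptor. In PBMC-hCG against IF 3 rose and 1 fell, with a median of 0.0385. Fst, which encodes the activin antagonist follistatin, fell by 1.39 (adjusted p = 0.0324), while Zbtb16 (0.85, adjusted p = 0.0326) and Nr2f2 rose.

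Genes for proteins that PADs are known to citrullinate were examined as a list of 20, of which 14 were tested and Flg and Flg2 were at 0 throughout. Between IF and control 3 rose and 2 fell, with a median of 0.177. Thbd (thrombomodulin) rose by 1.84 (SE 0.11, adjusted p = 4.99e-09) and Fn1 (fibronectin) by 0.98 (SE 0.20, adjusted p = 0.00162), and Tchh (trichohyalin) fell by 0.62 (SE 0.19, adjusted p = 0.0232). The call of Tchh was lost in a fit of only the 2 groups compared and without IF replicate 3 or 4, with adjusted p between 0.00498 and 0.0657 over the 20 fits that leave out a mouse. In PBMC-hCG against IF 1 gene was called, Thbd, which fell by 0.43 (adjusted p = 0.0313), and the median was 0.176. These are RNA levels, and citrullination was not measured.

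Arginine methyltransferases modify the same residue and were listed for that reason. Of 9 genes 8 were tested, and between IF and control 1 rose and 3 fell, with a median of -0.16. The falls were Prmt3 (-0.46, adjusted p = 0.00257), Prmt7 (-0.41, adjusted p = 0.000959) and Prmt5 (-0.33, adjusted p = 0.00645). In PBMC-hCG against IF Prmt7 (-0.24, adjusted p = 0.0489) and Prmt6 (-0.23, adjusted p = 0.0476) fell, with a median of -0.236. Of the 6 reference genes none was called in any comparison, and their median was 0.0186 in IF against control and -0.241 in PBMC-hCG against IF. No gene of these lists was called in PBMC against IF or in PBMC-hCG against PBMC.

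All of the calls named in these lists for PBMC-hCG against IF were lost when any 1 of IF replicates 2, 4 and 5 or PBMC-hCG replicates 2 to 5 was left out. For Inhbb the adjusted p ranged from 0.00669 to 0.0991 over the 20 fits that leave out a mouse, and for Nr3c1 from 0.00824 to 0.0919.

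Levels of other cell markers moved with some of these comparisons, and their part in the members' levels was not tested. Of 13 epithelial markers 5 were called as higher and 3 as lower in IF than control, and 3 as higher in PBMC-hCG than IF. Krt8 averaged 151.1 ± 25.9 TPM in control, 195.2 ± 28.2 TPM in IF, 231.3 ± 36.3 TPM in PBMC and 265.9 ± 36.3 TPM in PBMC-hCG (SD, n = 5), and Epcam averaged 114.3, 144.4, 134.7 and 124.6 TPM. The sum of the epithelial markers without Prss29 was 1039 ± 212 TPM in control, 1077 ± 142 TPM in IF, 1165 ± 105 TPM in PBMC and 1353 ± 171 TPM in PBMC-hCG (SD, n = 5). With Prss29 the 13 markers summed to 4771 ± 5999, 3531 ± 2182, 2232 ± 410 and 3299 ± 1558 TPM in the same order, and to 2140 ± 1345 TPM in control without replicate 2.

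Of 8 stromal markers 1 was called as higher and 2 as lower in IF than control, and 2 as higher in PBMC-hCG than IF, and they summed to 8108, 9332, 10010 and 9769 TPM in control, IF, PBMC and PBMC-hCG, and to 8778 TPM in control without replicate 2. Of 6 smooth muscle markers 1 was called as lower in IF than control, and they summed to 8103, 6641, 6559 and 5436 TPM. The 8 macrophage and monocyte markers, led by Lyz2 at 562.8 TPM, summed to 779.0, 822.7, 818.6 and 873.6 TPM in control, IF, PBMC and PBMC-hCG, with 2 called as higher in IF than control. The 9 lymphocyte markers, led by Ncr1 at 21.2 TPM, summed to 38.9, 42.6, 42.1 and 49.97 TPM, and none was called in any comparison.

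The 4 expressed Padi genes lie with Padi6 in a cluster on chromosome 4, and Greb1 lies on chromosome 12 (build GRCm38). Padi1 spans chr4:140812981-140845778 on the minus strand, Padi3 chr4:140785369-140810648 (minus), Padi4 chr4:140745508-140774239 (minus), Padi6 chr4:140727355-140742643 (minus) and Padi2 chr4:140906336-140952586 (plus). Each has 16 exons in its longest GENCODE transcript. Greb1 spans chr12:16670615-16801394 on the minus strand and has up to 35 exons.

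The order along the cluster is Padi6, Padi4, Padi3, Padi1 and Padi2, and levels did not follow it. Padi1, with the highest level, lies between Padi3, with the lowest level above 0, and Padi2. Noncoding genes overlap the cluster: Gm13032 overlaps Padi1 on the opposite strand and Gm13031 overlaps Padi2 on the opposite strand. Gm13032 averaged 0.0909 ± 0.0957 TPM in control, 0.494 ± 0.181 TPM in IF, 0.418 ± 0.113 TPM in PBMC and 0.416 ± 0.218 TPM in PBMC-hCG. Gm13031 averaged 0.173 to 0.346 TPM and Gm34375, within Padi2, 0.0804 to 0.40 TPM. The library kit keeps the strand, but whether strand was used in the quantification is not given in the sources used here, so reads of overlapping genes may be shared.

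The 5 nearest listed genes on each side of the cluster were compared with it, and those of Greb1 are not given. Of the 10 neighbours of the Padi cluster 7 were tested, and between IF and control Rcc2 (-0.38, adjusted p = 0.0295) and Mfap2 (-0.47, adjusted p = 0.0219) fell while Necap2 rose by 0.22 (adjusted p = 0.0195). These 3 calls were lost on leaving out 7, 4 and 1 of the 20 mice, in the order named, and all 3 were lost in a fit of only the 2 groups compared. In PBMC-hCG against IF Atp13a2 rose by 0.29 (adjusted p = 0.0469), a call kept in 5 of the 20 fits that leave out a mouse and in 5 of 9 other fits.

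**Figure D3:**
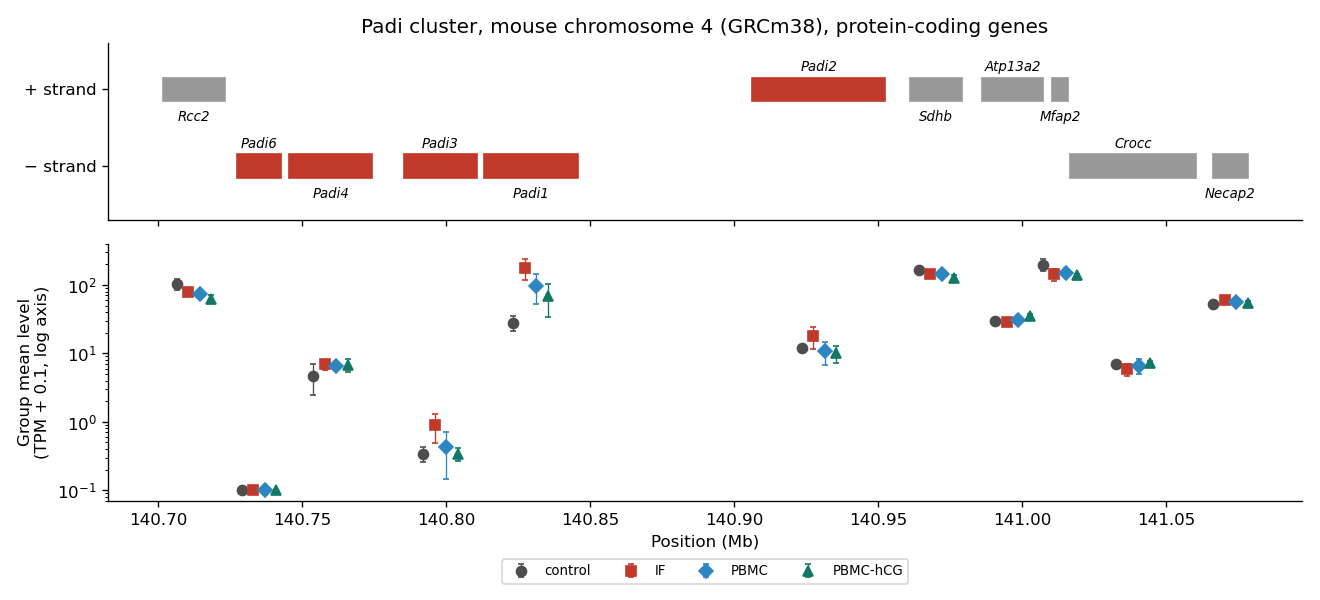
Upper panel: protein-coding genes of the Padi cluster and its neighbours on mouse chromosome 4 (GRCm38, position in Mb) by strand, with Padi genes in red and neighbours in grey. Lower panel: mean level of each gene in the 4 groups (TPM + 0.1, log axis, bars ± SD, n = 5), drawn at the middle of the gene and shifted sideways by group for sight. Padi1 spans the widest range of group means, from 28.1 TPM in control to 176.2 TPM in IF.

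Promoter sequences are shown for Padi1 and Padi2, whose levels ran together between mice of the same group (r = 0.71). The sequences are from RefSeq, build GRCm38.p6, in which all 5 members matched by symbol. The 250 bases before each start listed there were searched on both strands for 6 motifs, and the share of all 32851 promoters that hold each is given. They were the estrogen response element, GGTCA and TGACC with any 3 bases between them (0.0639%), its single arm AGGTCA (14%), the progesterone and glucocorticoid response element, GNACA and TGTNC with any 3 bases between them (0.387%), the AP-1 site TGANTCA (6.75%), the GC box GGGCGG (32.7%) and the TATA box TATAAA (12.4%). The first motif contains GGTCA, so it can overlap the single arm.

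The sequences run 5′ to 3′ on the strand of the gene, and capitals mark the motif matches. They lie at chr4:140845779-140846028 (minus strand) for Padi1 and chr4:140906110-140906335 (plus) for Padi2, where the last 24 bases were left off because they lie within the annotated gene.
Padi1: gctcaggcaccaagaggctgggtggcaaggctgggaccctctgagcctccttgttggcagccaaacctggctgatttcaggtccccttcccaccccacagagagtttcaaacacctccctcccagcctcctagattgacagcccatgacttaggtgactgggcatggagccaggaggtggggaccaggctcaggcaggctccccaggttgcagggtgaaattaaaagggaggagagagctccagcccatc
Padi2: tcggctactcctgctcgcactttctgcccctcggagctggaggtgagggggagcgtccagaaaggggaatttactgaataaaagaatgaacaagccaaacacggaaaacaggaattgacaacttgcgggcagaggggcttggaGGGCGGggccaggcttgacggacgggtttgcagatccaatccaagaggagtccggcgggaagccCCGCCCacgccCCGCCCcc
The Padi1 sequence holds none of the 6 motifs. Padi2 holds 3 GC boxes, at -107 to -102 and, on the opposite strand, at -43 to -38 and -32 to -27 from the listed start. Of the members not shown, Padi3 holds 1 GC box at -47 to -42, and Padi4 holds an AP-1 site at -54 to -48 and, within the 36 bases of its window that lie inside the annotated gene, a TATA box at -31 to -26. The windows of Greb1 lie within its annotated span. That of its listed start 2 holds the single arm AGGTCA, on the opposite strand at -88 to -83, and that of start 1 holds none of the 6 motifs. A match describes letters in these windows and is not evidence of binding.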

How the data were processed

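Stranded mRNA libraries were made from 1 uterine horn of each of 20 mice. The authors trimmed reads with Trimmomatic, aligned them to mm10 with HISAT2, assembled transcripts with StringTie and deposited TPM values per gene. Totals per library lay between 999989 and 999999 TPM, so the depth per sample is unknown. Groups and replicate numbers were taken from the labels, and no libraries held identical values.

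The fit used log2(TPM + 0.1) of the 18706 genes that no library listed at 0. It was run in R 4.3.3 with limma 3.58.1 (trend option) on all 4 groups together, and Benjamini-Hochberg adjustment was made separately per comparison. The fit was tested on simulated data. The count-based test of the study cannot be run on TPM. Correlations within groups used Python 3.11.15, numpy 2.4.6 and scipy 1.17.1.

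Named genes were the members, Padi6, Greb1l, Esr1, Esr2 and Pgr, in each pathway list the 3 called genes with the largest change in IF against control and in PBMC-hCG against IF, for each member the 5 most correlated genes, and the 5 nearest genes on each side of the Padi cluster. Markers and other genes named beside them were picked after their values were seen. Pathway lists were citrullinated proteins, arginine methyltransferases, steroid receptors, estrogen and progesterone receptor targets and reference genes. Marker lists covered neutrophils, macrophages, lymphocytes, uterine and cornified epithelium, stroma, smooth muscle and oocytes. Members and lists were chosen with earlier results of these data known. Positions came from RefSeq GRCm38.p6 and exon numbers from GENCODE M21. Alternatives were other pseudocounts, filters, scalings and fits, the call rule of the study, a replicate block and each mouse left out in turn.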

Additional observations from a re-analysis of the deposited data

Results flagged for a closer look

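In 7 of 68 groups of 5 mice examined, 1 mouse lay far from the other 4, judged by its gap to the nearest of them against the whole range, where chance gives about 1 in 20. Padi4 was at 8.55 TPM in control replicate 2, against 3.13 to 3.83 TPM in the other control mice. Greb1 was at 21.3 TPM in the same library, against 5.95 to 7.93 TPM. Greb1 was at 18.4 TPM in PBMC-hCG replicate 1, against 6.07 to 9.36 TPM in the other mice of that group. The summed uterine epithelium markers reached 15300 TPM in control replicate 2 and 6065 TPM in PBMC-hCG replicate 4. Prss29 alone made up 13970 and 4635 TPM of these sums. Without Prss29, PBMC-hCG replicate 4 had 1430 TPM, within its group range of 1131 to 1535 TPM. Control replicate 2 then had 1330 TPM, against 746 to 1091 TPM in the other control mice. The summed stroma markers were at 5430 TPM in control replicate 2. The summed macrophage and monocyte markers were at 879.4 TPM in PBMC replicate 3.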

How the results depend on the processing

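The log2 fold changes of Padi1, Padi2, Padi4 and Greb1 moved by less than the spread between mice with other pseudocounts and with other scalings. Leaving out 1 mouse of a group of 5 cannot move them by more than that spread, so ranges are given instead. For IF against control these were 2.45 to 2.82 for Padi1, 0.35 to 0.70 for Padi2, 0.54 to 0.89 for Padi4 and 0.79 to 1.24 for Greb1. The other fits cannot move the fold changes, since they leave the group means as they are. Padi3 moved with the pseudocount: PBMC against IF was -1.99 with 0.01, and with 1 the values were 0.51 for IF against control, -0.44 for PBMC against IF and -0.51 for PBMC-hCG against IF. Depth is unknown, so values near 0 such as those of Padi3 have no detection limit.

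The number of genes called changed more. Between IF and control, 4104 genes became 2473 with only the 2 groups compared in the fit, and 3323 to 5012 with each mouse left out. Between PBMC and IF, 0 became 1 without a filter on low values and 0 to 2 with each mouse left out. Between PBMC-hCG and IF, 2544 became 812 without the filter, where more genes are adjusted for, and 0 to 5061 when mice were dropped singly: 0 on dropping replicate 5 of IF or replicate 3 of PBMC-hCG, 1 without PBMC-hCG replicate 2, 8 and 14 without IF replicates 2 and 4, 18 and 34 without PBMC-hCG replicates 4 and 5, 4080 without control replicate 2, 4166 without PBMC-hCG replicate 1 and 5061 without IF replicate 3. Between PBMC-hCG and PBMC, 2 became 1 with a pseudocount of 1 or a mean of at least 1 TPM, and 2 to 7 with each mouse left out, 7 without PBMC-hCG replicate 1. By the rule of the study, a fold of at least 2 and an unadjusted p under 0.05, the 4 counts were 754, 82, 432 and 167. The cause of these changes was not tested where none is given.

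With each mouse left out, r within groups was 0.765 to 0.892 for Padi1 and Greb1, 0.635 to 0.749 for Padi1 and Padi2, 0.511 to 0.728 for Padi2 and Greb1, 0.142 to 0.438 for Padi1 and Padi4, 0.262 to 0.582 for Padi2 and Padi4 and 0.18 to 0.772 for Padi4 and Greb1. With Padi3 it was 0.0789 to 0.482 for Padi1, -0.0632 to 0.432 for Padi2, -0.278 to 0.0394 for Padi4 and -0.17 to 0.152 for Greb1. For Padi2 and Padi4 r was 0.452 with quantile normalization and 0.419 with median-of-ratios scaling. The cause was not tested. No scaling moved the median of all genes by over 0.1.

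Samples of different groups share replicate numbers, and 8 of 30 pairs with the same number had correlated deviations over 0.1 (r from -0.247 to 0.457). Pairs with different numbers were not set beside them, so whether the numbers pair any mice cannot be told from these values. The highest values were those among replicates 5 of control, IF and PBMC (0.396, 0.272 and 0.457). Replicate 5 of PBMC-hCG had -0.0591, -0.0896 and -0.0825 with these mice. The cause was not tested. With the replicate block 4153, 0, 3215 and 2 genes were called in the 4 comparisons. This block cannot change a fold in a balanced design, so Padi1 stays at 2.60 in IF against control.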
